A study of Bos indicus x Bos taurus with 11 samples.

Results

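The genes followed here in bovine fetal skin fibroblasts were 10 of the 27398 genes and assembled loci of the total count table: the forkhead transcription factor genes FOXO1, FOXO3 and FOXO4, the nuclear receptor gene PPARA, and the mitochondrial fatty acid oxidation genes CPT1A, CPT2, ACADVL, ACADM, HADHA and HADHB. They were taken by gene name. The lower levels of FOXO1 and CPT1A in fetuses with large offspring syndrome were already known from these data, and the other 8 are further genes of the family and of the pathway. Values of large offspring syndrome against control are therefore given for these genes as a description, without a test. Of the 10 genes, 8 also have allelic reads and 5 are in the table of expression split by allele. FOXO4, which lies on chromosome X, and ACADVL have neither here.

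The study compared primary skin fibroblasts of 6 fetuses with large offspring syndrome (LOS), in which the bovine fetus overgrows, with those of 5 control fetuses (CON_B), with 1 library of ribosome-depleted total RNA per fetus. Each fetus, taken at day 105 of gestation, was a first cross between the Brahman breed of Bos taurus indicus and the Angus breed of Bos taurus taurus. LOS fetuses (3 males, 3 females) were conceived by assisted reproductive technology and were defined by a body weight above a high centile of the controls. Control fetuses (3 males, 2 females) were conceived by artificial insemination, so the overgrowth and the way of conception cannot be told apart. All cultures were grown in the same medium with fetal bovine serum, and each is 1 primary culture of 1 fetus. The labels do not say which breed was the dam, so parent of origin and breed of the allele cannot be told apart.

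FOXO factors are transcription factors that insulin and growth factor signalling switches off: the kinase AKT phosphorylates them and they leave the nucleus. When that signal is low they act on genes of growth arrest, stress resistance and lipid use. Fatty acid oxidation begins at the outer mitochondrial membrane, where CPT1A joins a long fatty acid to carnitine, the step that controls the flow of the pathway. CPT2 undoes that link on the inner membrane, ACADVL and ACADM carry out the first oxidation of long and medium chains, and HADHA and HADHB are the subunits of the trifunctional protein that completes each round on long chains. PPARA is a receptor that senses fatty acids and acts on many of these genes.

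Total counts ran from 12084724 to 19297095 in LOS and from 14146969 to 19272277 in controls. The 12 fibroblast markers, such as COL1A1, VIM and PDGFRA, were all detected and summed to between 57628 and 72545 CPM in LOS libraries and between 60061 and 70295 CPM in controls, where CPM are gene counts relative to the library's total count, scaled by TMM (trimmed mean of M values). Adipocyte markers summed to 15.5 to 25.6 CPM in LOS and 10.9 to 39.9 CPM in controls over the 8 of 8 measured. Most of that was LPL, at 13.3 and 14.7 CPM on average, and UCP1, LEP and ADIPOQ had at most 1, 1 and 4 counts in any library. The 5 measured of 8 skeletal muscle markers summed to 1.06 to 1.96 CPM in LOS and 1.33 to 2.30 CPM in controls, and 7 measured leukocyte markers to 0.687 to 1.31 and 0.883 to 1.87 CPM. The 7 measured keratinocyte markers summed to 0.106 to 21.6 CPM in LOS and 1.83 to 9.10 CPM in controls, mostly CDH1, and the 7 measured endothelial markers to 7.19 to 12.1 and 5.68 to 16.6 CPM. Of these measured markers, 0 were without a count in all 11 libraries. In such bulk cultures, fewer cells of a type and less RNA per cell cannot be told apart.

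FOXO1 was lower in LOS fibroblasts than in controls. It lies on the plus strand of chromosome 12, from 21900254 to 21993948 (build ARS-UCD1.2, per the submitters' processing notes, for all positions). Its level in the 6 LOS libraries ran from 29.9 CPM in LOS 6 through a median of 36.8 CPM to 51.4 CPM in LOS 4. The controls had 60.2, 70.1, 54.4, 72.0 and 49.6 CPM in controls 1 to 5. The groups overlapped in LOS 4 and control 5 alone: 5 LOS libraries lay below every control. FOXO1 averaged 39.1 ± 10.1 CPM in LOS (SD, n = 6) and 61.3 ± 9.72 CPM in controls (SD, n = 5), a log2 fold change of -0.65 ± 0.18 (SE), a percent change of -36.2.

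The other FOXO genes overlapped between the groups throughout. FOXO3 (chromosome 9, 41503633 to 41621614, minus strand), the family member best known for stress resistance, ran from 38.3 CPM in LOS 1 through a median of 76.5 CPM to 85.7 CPM in LOS 6. Controls had 48.4, 91.1, 41.6, 62.3 and 53.9 CPM. LOS 2, LOS 3, LOS 5 and LOS 6 stood above all controls but control 2, and the log2 fold change was 0.19 ± 0.25 (SE). Without control 2 it was 0.44, and without control 3 it was 0.09. FOXO4 (chromosome X, 79528188 to 79535459, minus strand) ranged from 5.25 CPM in LOS 1 to 20.2 CPM in LOS 5, with a median of 13.2 CPM, against 8.92, 20.4, 6.73, 13.0 and 9.60 CPM in controls 1 to 5. Its log2 fold change was 0.17 ± 0.34 (SE), with -0.03 without LOS 5 and 0.51 without control 2. FOXO4 was the most variable of the 10 genes within groups, with a coefficient of variation of 37.7% in LOS and 45.5% in controls. The ratio of FOXO1 to FOXO3 within a library averaged 0.626 ± 0.260 in LOS (SD, n = 6) and 1.08 ± 0.227 in controls (SD, n = 5), and 4 LOS libraries lay below every control.

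**Figure D1:**
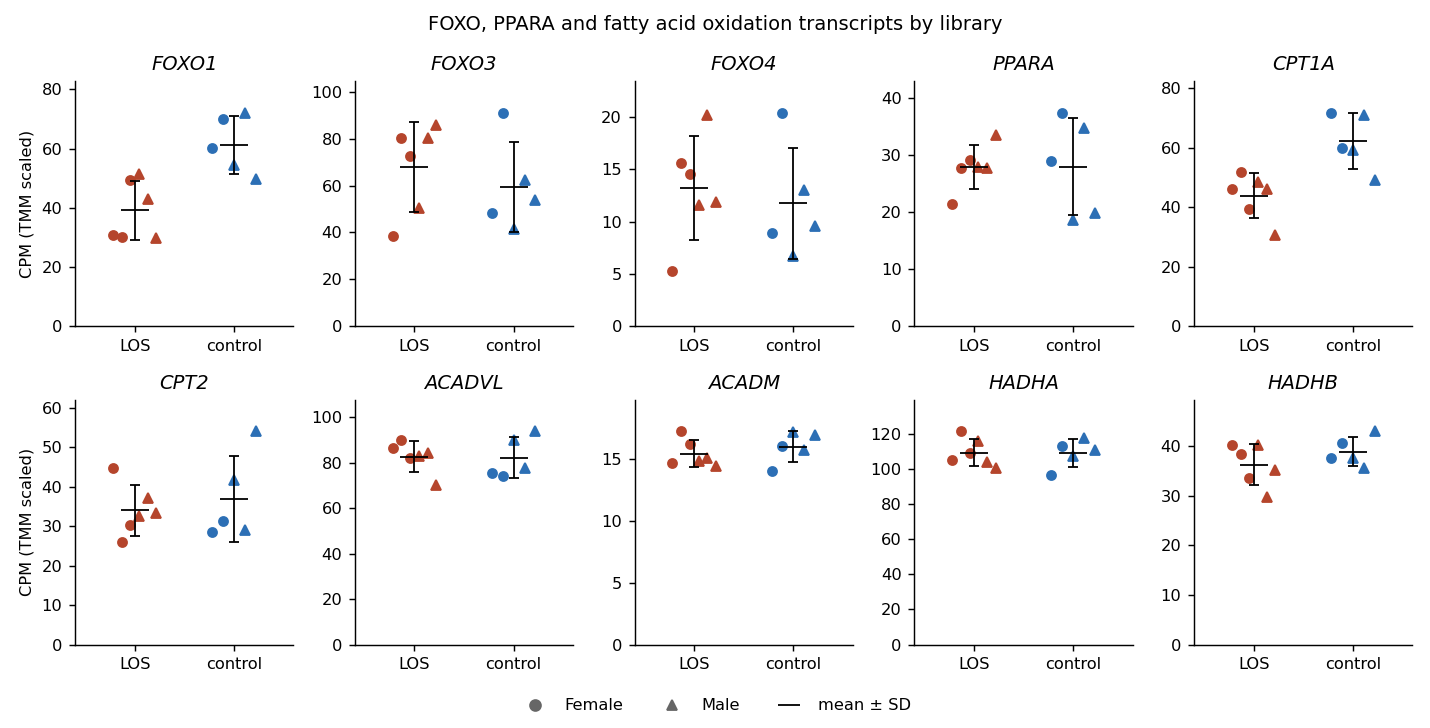
Level of each gene in CPM (vertical axis, TMM scaled, each panel from 0) in the 6 LOS and the 5 control libraries; circles are females, triangles males, and bars give the mean ± SD. FOXO1 and CPT1A are low in LOS, with 5 of 6 LOS libraries under every control, while ACADVL, ACADM, HADHA and HADHB lie in narrow overlapping ranges.

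CPT1A was the one of the 6 oxidation genes with most LOS libraries outside the control range. The gene lies on chromosome 29, 46164801 to 46225402, minus strand. LOS libraries ran from 30.7 CPM in LOS 6 through a median of 46.2 CPM to 52.0 CPM in LOS 2, and controls had 71.7, 60.0, 59.2, 70.96 and 49.3 CPM. LOS 2 and control 5 made the overlap, and 5 LOS libraries lay below every control. The means were 43.8 ± 7.62 CPM in LOS (SD, n = 6) and 62.2 ± 9.32 CPM in controls (SD, n = 5), a log2 fold change of -0.52 ± 0.14 (SE).

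CPT2, the partner of CPT1A on the inner membrane (chromosome 3, 93032986 to 93057158, minus strand), varied more among controls than between the groups. It ran from 25.9 CPM in LOS 2 through a median of 33.0 CPM to 44.8 CPM in LOS 1, against 28.6, 31.3, 41.6, 29.1 and 54.0 CPM in controls. Its log2 fold change of -0.08 ± 0.18 (SE) was 0.07 without control 5 and -0.20 without LOS 1. The ratio of CPT1A to CPT2 averaged 1.33 ± 0.387 in LOS (SD, n = 6) and 1.84 ± 0.679 in controls (SD, n = 5), with overlapping ranges of 0.916 to 2.01 and 0.912 to 2.51.

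The enzymes of the oxidation cycle itself overlapped between the groups and lay in narrow ranges. ACADVL (chromosome 19, 26934736 to 26940043, plus strand) averaged 82.7 ± 6.72 CPM in LOS (SD, n = 6) and 82.2 ± 8.98 CPM in controls (SD, n = 5), with LOS 6 lowest at 70.3 CPM. ACADM (chromosome 3, 69086074 to 69124524, minus strand) averaged 15.4 ± 1.08 and 15.98 ± 1.25 CPM in LOS and controls. HADHA (chromosome 11, 73262063 to 73298911, plus strand) averaged 109 ± 7.92 CPM in LOS, with 109 ± 7.92 CPM in controls. All these ranges overlapped, and coefficients of variation for ACADVL, ACADM and HADHA were between 6.99% and 10.9% in either group.

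HADHB, the other trifunctional subunit gene, starts 5.62 kb from HADHA on the opposite strand (chromosome 11, 73226233 to 73256446, minus strand). It had its lowest level, 29.7 CPM, in LOS 5, a median of 36.8 CPM in LOS and a highest LOS value of 40.2 CPM. Controls had 37.5, 40.6, 37.6, 35.5 and 42.9 CPM, so 3 LOS libraries lay below every control. The log2 fold changes with their SE were 0.01 ± 0.09 for ACADVL, -0.05 ± 0.09 for ACADM, 0.00 ± 0.08 for HADHA and -0.11 ± 0.10 for HADHB. Summed over CPT2, ACADVL, ACADM, HADHA and HADHB, the level was 278 ± 15.3 CPM in LOS (SD, n = 6) and 283 ± 24.6 CPM in controls (SD, n = 5). HADHB counts were fractional in 8 of 11 libraries at a tolerance of 0.001, and in 3 each for ACADM and PPARA, while the other 7 genes had whole counts in all libraries. In the RefSeq gene table of another assembly, UOA_Brahman_1, the symbol HADHB is not on chromosome 11, and the rule for reads shared between genes is not given in any source used here. Whether HADHB shares reads with another locus was not tested, so its values are uncertain.

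PPARA (chromosome 5, 116438920 to 116513618, plus strand) had the same mean in both groups, 27.9 ± 3.89 CPM in LOS (SD, n = 6) and 27.9 ± 8.52 CPM in controls (SD, n = 5). Control values lay at both ends of the range, with 28.9, 37.4, 18.5, 34.8 and 19.9 CPM, against 21.4 to 33.6 CPM in LOS. The log2 fold change was 0.00 ± 0.19 (SE), and single libraries left out moved it between -0.12 and 0.13.

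**Figure D2:**
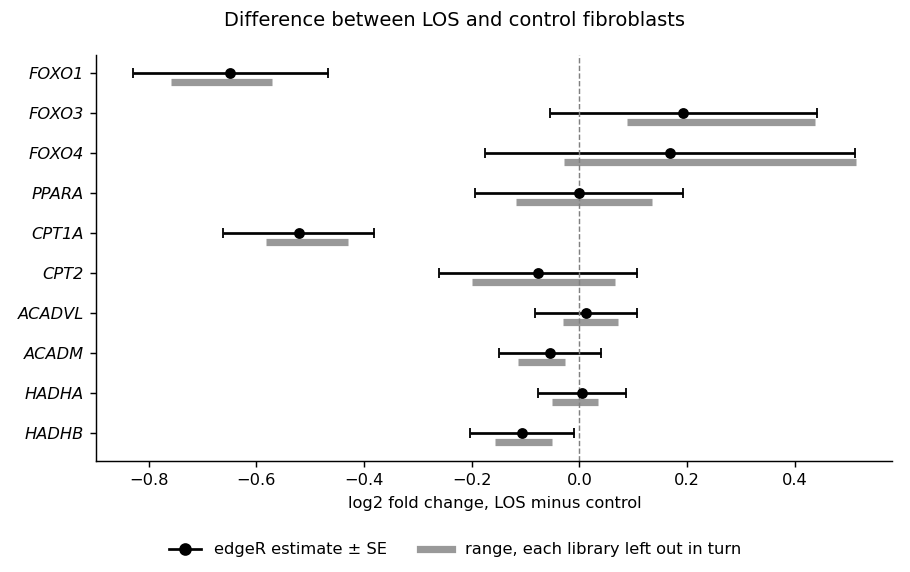
Log2 fold change, LOS minus control, of each gene (horizontal axis, 0 dashed): black points are the edgeR estimates with their SE from 6 LOS and 5 control libraries, and grey bars the range of estimates with each library left out in turn. FOXO1 and CPT1A stay between -0.76 and -0.43, and the bars of FOXO4, PPARA, CPT2, ACADVL and HADHA cross 0.

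All 6 LOS libraries lay below the control median in 2 of the 10 genes, FOXO1 and CPT1A, a pattern shown by 5.13% of the 16946 genes tested. None of the 10 genes separated the groups fully, as 0.136% of all genes did with LOS lower and 0.0944% with LOS higher. The log2 fold change was below 0 in 6 of the 10, PPARA by -0.0012 among them, against 50.2% of all genes. With the Benjamini-Hochberg adjusted p of edgeR's quasi-likelihood test, 0% of all genes (0 genes) were called, with 752 genes (4.44%) at an unadjusted p under 0.05, while DESeq2 called 5 and limma voom 0. The choice of the genes used this contrast, so nothing is read from these shares. By library, LOS 1 and LOS 6 had 4 of the 10 genes below the control range, LOS 3 and LOS 5 had 3, LOS 2 had 2 and LOS 4 had 1. LOS 2 also had 2 genes, ACADM and HADHA, above it. The matching share over all genes is not given here for single libraries, so nothing is read from these counts. Without LOS 6, the lowest library in both genes, the log2 fold changes were -0.57 for FOXO1 and -0.43 for CPT1A.

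Genes of dividing cells also lay lower in LOS on average, though not in every LOS library. Of these, 12 of 12 had a log2 fold change below 0, beside 50.2% of all genes tested. The median was -0.45, beside 0.00 over all genes tested, and 0 were called. Without control 5 or without LOS 5, 1 of the 12 lay above 0. Their summed level ran from 145 to 498 CPM in LOS and from 203 to 387 CPM in controls, with medians of 202 and 349 CPM. Within groups, that sum showed a Pearson r of 0.00 with FOXO1 (Spearman rho 0.12, permutation p = 0.994 and 0.753) and 0.14 with CPT1A (rho 0.20, permutation p = 0.707 and 0.575), with adjusted p for r over the 10 genes of 0.994 and 0.975. Without the 2 libraries farthest in that sum, r was 0.46 for FOXO1 and -0.01 for CPT1A. The part of cell division in the FOXO1 and CPT1A values was not tested beyond this.

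The 2 alleles of FOXO1 and of CPT1A were both lower on average in LOS. The maternal allele of FOXO1 averaged 18.2 ± 5.66 CPM in LOS (SD, n = 6) and 31.5 ± 8.23 CPM in controls (SD, n = 5). Its paternal allele averaged 20.9 ± 5.01 CPM in LOS against 29.8 ± 3.56 CPM in controls. For each allele, all 6 LOS libraries lay below the control median. The maternal allele of CPT1A averaged 19.6 ± 5.18 CPM in LOS against 32.5 ± 9.78 CPM in controls, and the paternal allele 24.2 ± 5.87 against 29.7 ± 5.03 CPM, with 6 and 5 of 6 LOS libraries below the control median. These values multiply the total by the allelic share, so they carry the same contrast as the totals.

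The allelic share is a measure that did not choose the genes. It is the percent of reads at sites where the parents differ that carry the maternal base. Of the 8 genes with such reads, 7 had enough to be tested among 5700 autosomal genes, and ACADM, with 4 to 20 reads in 6 libraries, was not tested. The share did not pass the test of a difference between LOS and controls in any of the 7, nor in any of the 5700 genes (0% called, 246 at an unadjusted p under 0.05). The edgeR adjusted p was 0.999 for each of the 7. FOXO1 had a maternal share of 46.1% ± 5.81 in LOS (SD, n = 6) and 50.9% ± 6.13 in controls (SD, n = 5), a difference of the log2 allelic ratio of -0.31 ± 0.23 (SE), from 32 to 337 reads per library. CPT1A had 44.9% ± 8.91 in LOS and 51.5% ± 10.7 in controls (-0.34 ± 0.31), from 26 to 167 reads. CPT2 had 49.8% ± 5.40 in LOS and 43.8% ± 9.18 in controls (0.34 ± 0.24). HADHA had the widest gap in mean share, 48.7% ± 7.53 in LOS (SD, n = 6) and 61.5% ± 8.71 in controls (SD, n = 4). Controls 1, 2, 4 and 5 had 63.6%, 60.5%, 50.4% and 71.4%, from 11, 38, 133 and 7 reads. Libraries with few reads thus weigh as much as the others in that mean. The difference of the log2 allelic ratio of HADHA was -0.34 ± 0.33. Each of these 4 differences was within 2 SE of no difference.

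HADHB carried more maternal than paternal reads in all 11 libraries. The maternal share was 60.2%, 58.5%, 59.4%, 61.7%, 59.2% and 56.0% in LOS 1 to 6, and 51.6%, 55.8%, 61.3%, 62.0% and 65.8% in controls 1 to 5. The pooled reads numbered 907 maternal and 629 paternal, or 59.0% maternal, with 49 to 260 reads per library. The log2 ratio of maternal to paternal reads was 0.54 ± 0.09 (SE), which passed edgeR's quasi-likelihood test over 5700 genes with a Benjamini-Hochberg adjusted p of 0.000201. Such calls were frequent: 20.1% of the genes tested passed, 9.91% with the maternal allele higher, and 317 genes had 1 allele ahead in all 11 libraries. The share in HADHB was 59.2% ± 1.88 in LOS (SD, n = 6) and 59.3% ± 5.62 in controls (SD, n = 5), and the difference of the log2 allelic ratio was 0.01 ± 0.18 (SE). The exact 95% intervals, which cover counting error only, included an equal share in 5 of the 11 libraries: LOS 2, LOS 5, LOS 6, control 1 and control 2. The interval ran from 42.5% to 60.6% in control 1, the lowest share, and from 56.6% to 74.2% in control 5, the highest. Whether HADHB shares reads with another locus was not tested, so its allelic share is uncertain too. Parent of origin and breed of the allele cannot be told apart in it.

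The other 6 tested genes did not pass the test of maternal against paternal reads. HADHA, the neighbour of HADHB, had 289 maternal and 270 paternal reads over 10 libraries, with 7 to 133 per library (log2 ratio 0.18 ± 0.16, adjusted p = 0.525 by edgeR). Whether the shares of HADHA and HADHB differ from each other was not tested. FOXO3 had the most reads, 219 to 1086 per library, and stood at 49.5% ± 3.45 maternal (SD, n = 11), with a log2 ratio of -0.03 ± 0.07. FOXO1, CPT1A, CPT2 and PPARA had pooled maternal shares of 49.5%, 49.6%, 47.3% and 51.6%, with edgeR adjusted p between 0.362 and 0.824.

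**Figure D3:**
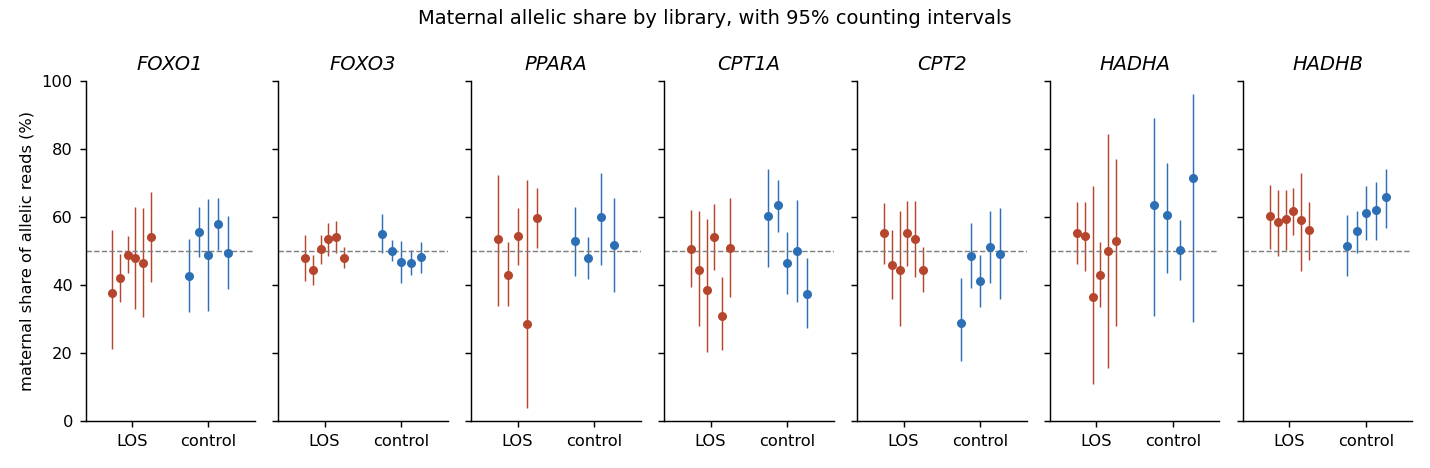
Maternal percent of allelic reads (vertical axis, equal share dashed) of the 7 tested genes, 1 point per library with reads, LOS left of control, with exact 95% counting intervals. HADHB lies above the line in all 11 libraries, between 51.6% and 65.8%, whereas the points of the other genes lie on both sides.

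None of the 10 genes passed a test of sex. In the same fit, 0 of 10 passed the test of males against females, where 0.0472% of all genes did (edgeR, 8 of 16946, with 560, or 3.30%, at an unadjusted p under 0.05), and each of the 10 had an adjusted p of 0.999 or more. FOXO4, X-linked, averaged 12.2 ± 4.50 CPM in males (SD, n = 6) and 12.9 ± 5.93 CPM in females (SD, n = 5), a log2 fold change of -0.10 ± 0.34 (SE). CPT2 had the highest estimate, 0.23 ± 0.18, from 38.0 ± 8.93 CPM in males and 32.2 ± 7.35 CPM in females. FOXO1 averaged 50.1 ± 13.9 and 48.1 ± 17.8 CPM in males and females, and CPT1A 50.8 ± 13.5 and 53.9 ± 12.5 CPM.

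Split by sex, CPT1A stood at 41.7 CPM in LOS males against 59.8 CPM in control males. It stood at 45.9 CPM in LOS females against 65.9 CPM in control females. FOXO1 stood at 41.4 against 58.7 CPM in males and 36.8 against 65.2 CPM in females. The lower levels of both genes were already known from these libraries, so the split is a description. The interaction of group and sex was 0.00 ± 0.29 for CPT1A and 0.32 ± 0.37 for FOXO1 (log2, SE), and 0 of the 10 genes passed its test (edgeR adjusted p from 0.921 upward, 0% of 17583 genes called, 870, or 4.95%, at an unadjusted p under 0.05, and 6 called by DESeq2). FOXO3 had 72.2 CPM in LOS males against 52.6 CPM in control males, and 63.8 CPM in LOS females against 69.7 CPM in control females. FOXO4 and PPARA had the same order, with 14.6 against 9.79 and 29.7 against 24.4 CPM in males, and 11.8 against 14.7 and 26.1 against 33.1 CPM in females. The interactions of 0.59 ± 0.49 for FOXO3, 0.88 ± 0.67 for FOXO4 and 0.63 ± 0.36 for PPARA did not pass. Without control 2, 1 of the 2 control females, they were 0.06 for FOXO3, 0.16 for FOXO4 and 0.43 for PPARA, and without control 1 they were 0.97 for FOXO3 and 1.36 for FOXO4. These means rest on 3 libraries each, and on 2 for control females.

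Among fetuses of a group, FOXO1 passed no test of a relation with the other 9 genes. With group means removed, Pearson r of its log2 CPM over the 11 libraries ran from -0.39 with CPT2 to 0.48 with FOXO4, and was 0.32 with CPT1A (Spearman rho 0.15). None of the 9 relations passed a permutation test within groups (100000 resamples, two-sided, adjusted p from 0.645 to 0.664 for r and from 0.767 to 0.969 for rho). Without the 2 libraries farthest in FOXO1, r with CPT1A was 0.44 and r with HADHB -0.72. Without LOS 6, FOXO1 passed with ACADVL (r = -0.69, permutation adjusted p = 0.0357) and with PPARA (r = 0.66, permutation adjusted p = 0.0408). Each of these pairs passed in only 1 of the 11 fits with a library left out. Over all libraries, r with ACADVL was 0.10 in LOS and -0.87 in controls, and r with PPARA was 0.13 and 0.94.

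FOXO3 and FOXO4 varied together. Both were lowest in LOS 1 and, among controls, lowest in control 3 and highest in control 2. Over all 45 pairs of the 10 genes, a family looked at beyond the FOXO1 pairs, theirs alone passed for Pearson's r (0.906, permutation p = 0.00052 and adjusted p = 0.0234; rho 0.864, adjusted p = 0.0398). The coefficient was 0.786 without the 2 libraries farthest in FOXO3. The call was kept without control 1, LOS 5 or LOS 6 and lost without any of the other 8 libraries, where r ran from 0.84 to 0.94 and the permutation adjusted p reached 0.174, and with sex means also removed (r = 0.894, permutation adjusted p = 0.399). Total counts moved with FOXO3 within groups (r = 0.679, rho 0.736, permutation p = 0.0314, adjusted p = 0.157 over the 10 genes). With total counts regressed out, r between FOXO3 and FOXO4 was 0.896.

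ACADVL and PPARA, a pair taken up after seeing the data, tended to run in opposite directions. Pearson's r of -0.829 did not pass (permutation p = 0.00782, adjusted p = 0.117). The rho of -0.918 did (permutation adjusted p = 0.0398 over the 45 pairs). With each library left out in turn, r ran from -0.88 to -0.78, with a permutation adjusted p from 0.0954 to 0.376. PPARA was above and ACADVL below its group's mean CPM in LOS 3, LOS 6, control 1, control 2 and control 4. The reverse held in LOS 1, LOS 2, LOS 5, control 3 and control 5, and in LOS 4 both lay just above the mean. Without the 2 libraries farthest in ACADVL, r was -0.82. Total counts went with PPARA (r = 0.72, rho 0.609, permutation p = 0.0215, adjusted p = 0.157) and against ACADVL (r = -0.68, rho -0.509, permutation p = 0.0524, adjusted p = 0.175), and with them regressed out the coefficient between the genes was -0.667.

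**Figure D4:**
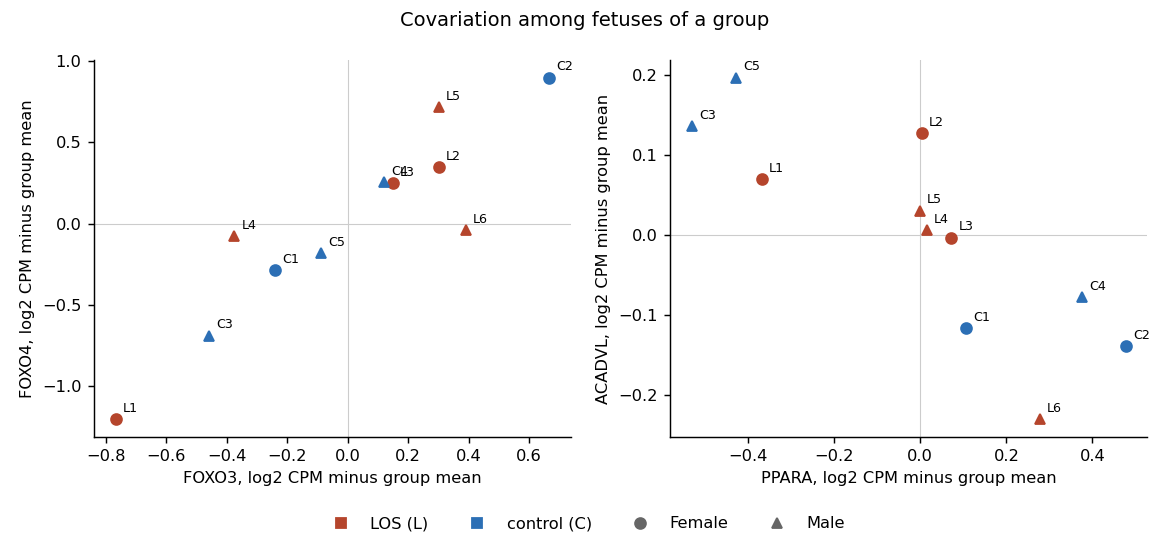
Each point is 1 library, as log2 CPM minus the mean of its group, for FOXO3 against FOXO4 (left) and PPARA against ACADVL (right); L marks LOS, C control, and triangles males. FOXO3 and FOXO4 line up from LOS 1 to control 2 (r = 0.906), and ACADVL is low where PPARA is high (r = -0.829).

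Among genes whose group-centred level was most like FOXO1, out of 8187 annotated genes with a mean of 10 CPM or more, were the homeobox gene HOXC4 (r = 0.908 over 11 libraries), TBC1D31, which encodes a centrosomal protein (0.857), and the calcineurin regulator gene RCAN3 (0.838). HOXC4 averaged 17.5 ± 6.43 CPM in LOS (SD, n = 6) and 19.5 ± 2.49 CPM in controls (SD, n = 5). For CPT1A they were the cell adhesion gene CADM3 (r = 0.935), the junction protein gene PKP4 (0.910), BCL2L1, which blocks apoptosis (0.900), and the prostaglandin synthase gene PTGS2 (0.897). PTGS2 averaged 44.3 ± 18.5 CPM in LOS against 58.4 ± 26.8 CPM in controls. None of these was one of the 10 genes, and CPT1A ranked 1381 of 8187 by its r with FOXO1.

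None of the neighbours of FOXO1 and CPT1A passed the test. The 3 nearest tested annotated genes on each side of FOXO1 and of CPT1A gave 0 of 12 called. As 0 of all 16946 genes tested were called, the test does not set these neighbours apart from other genes. Next to CPT1A their log2 fold changes ran from -0.05 for MRGPRF to 0.24 for LRP5. Next to FOXO1 they ran from -0.25 for SLC25A15 to 0.44 ± 0.15 (SE) for LHFPL6, singled out after its values were seen, which averaged 1546 ± 316 CPM in LOS (SD, n = 6) and 1146 ± 90.0 CPM in controls (SD, n = 5) (edgeR adjusted p = 0.932). CPT1A lies 2.53 Mb from KCNQ1, a potassium channel gene in an imprinted domain, and 3.17 Mb from IGF2, an imprinted growth factor gene.

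The rest of the oxidation pathway was divided between the directions. Of 37 listed genes of fatty acid uptake, activation and oxidation, 36 were measured and 35 tested, 17 higher and 18 lower in LOS. The median log2 fold change was 0.00 (0.00 over all genes), and 0 were called. For this list and those below, 0 called stands beside 0% of all 16946 genes tested. The 4 with the smallest p had an adjusted p of 0.932 each by edgeR. ACSL5, which activates fatty acids for use, averaged 4.95 ± 3.00 CPM in LOS (SD, n = 6) and 10.4 ± 4.04 CPM in controls (SD, n = 5), and each LOS library lay below the control median. DECR1, which handles unsaturated chains, had 3.84 ± 1.35 CPM in LOS against 5.37 ± 0.669 CPM in controls; 5 LOS libraries lay below every control and 1 above every control. ACADSB, an acyl-CoA dehydrogenase of branched short chains, averaged 58.9 ± 8.87 and 65.0 ± 5.81 CPM in LOS and controls. HADH, which carries out on shorter chains the dehydrogenase step that HADHA carries out on long ones, averaged 37.4 ± 2.84 CPM in LOS against 32.5 ± 4.91 CPM in controls.

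The PPAR axis held the coactivator gene PPARGC1A, whose product switches on mitochondrial and fatty acid oxidation genes together with PPARA. It averaged 5.09 ± 3.34 CPM in LOS (SD, n = 6) and 12.4 ± 6.83 CPM in controls (SD, n = 5), with 4 LOS libraries below every control and all 6 below the control median. Its log2 fold change was -1.43 ± 0.47 (SE, edgeR adjusted p = 0.932), and -0.95 without control 4. Of 22 listed genes 19 were measured and 17 tested, 8 higher and 9 lower, with 0 called and a median of -0.01. RXRA, the partner receptor of PPARA, averaged 58.7 ± 7.25 and 68.4 ± 17.7 CPM in LOS and controls, ESRRA, an orphan receptor of energy metabolism, 14.4 ± 2.58 and 12.4 ± 0.794 CPM, and LPIN1, a phosphatase of lipid synthesis that also acts with PPARGC1A in mouse liver, 30.9 ± 24.8 and 21.7 ± 8.99 CPM. LPIN1 had a log2 fold change of 0.53 ± 0.47 (SE), and -0.03 without LOS 6. Each of these 4 had an edgeR adjusted p of 0.932.

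Genes described as FOXO targets in mouse or human cells were divided between the directions too. Of 30 listed, 27 were measured and tested, 15 higher and 12 lower in LOS, with 0 called and a median of 0.02. Without control 1 the number higher was 9. TRIB1, a pseudokinase gene, averaged 19.4 ± 10.4 CPM in LOS (SD, n = 6) and 7.95 ± 3.61 CPM in controls (SD, n = 5), and GADD45A, a growth arrest gene, 41.8 ± 10.1 against 26.6 ± 6.50 CPM. FBXO32, a ubiquitin ligase gene of muscle wasting, had 93.2 ± 51.4 CPM in LOS and 49.3 ± 14.0 CPM in controls, from a spread of 12.7 to 141 CPM among the LOS libraries. CAT, the catalase gene, had 58.9 ± 14.1 against 73.6 ± 15.3 CPM. Each of these 4 had an adjusted p of 0.932 by edgeR.

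Of 25 listed genes, FOXO6 and genes that act on FOXO proteins, 25 were measured and 24 tested, 13 higher and 11 lower, with 0 called and a median of 0.01. PIK3CA, the catalytic kinase upstream of AKT, averaged 136 ± 21.7 CPM in LOS (SD, n = 6) and 111 ± 11.5 CPM in controls (SD, n = 5). YWHAZ, a 14-3-3 gene whose product holds phosphorylated FOXO proteins outside the nucleus, averaged 439 ± 38.8 CPM in LOS against 377 ± 39.0 CPM in controls. SGK3, a kinase related to AKT, averaged 8.72 ± 1.73 and 10.1 ± 1.35 CPM in LOS and controls. The adjusted p was 0.932 for each of these by edgeR.

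**Figure D5:**
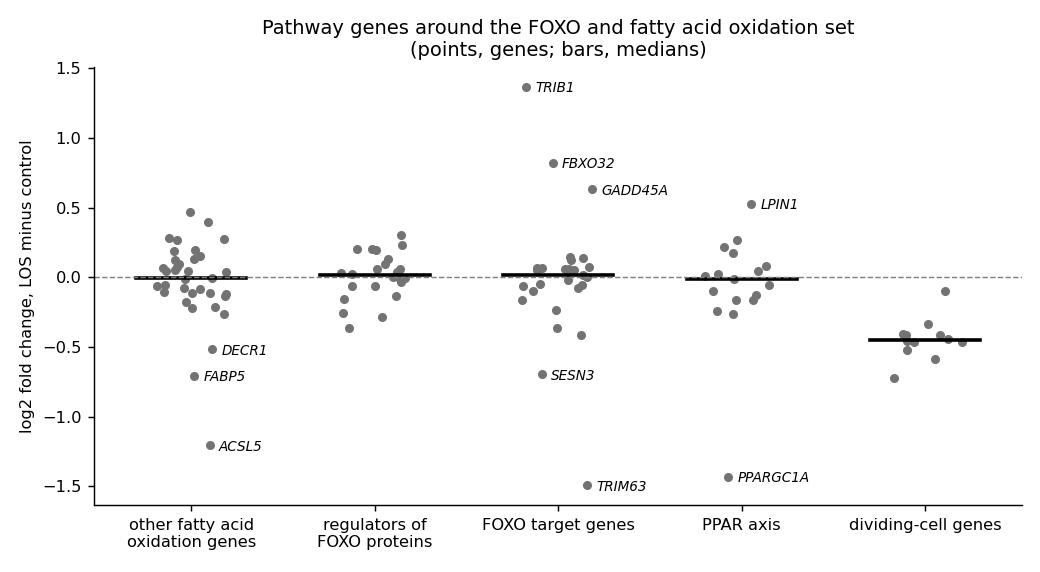
Log2 fold change, LOS minus control (vertical axis, 0 dashed), of each tested gene of 4 lists around the 10 genes and of genes of dividing cells; points are genes, bars medians, and genes beyond 0.5 in the first 4 lists are named. The medians of the first 4 lists lie between -0.01 and 0.02, and that of the dividing-cell genes at -0.45.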

How the data were processed

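Per the submitters' processing notes, the authors used the build ARS-UCD1.2 and tools that include HISAT2 2.1.0, StringTie 2.1.4 and edgeR 3.36.0; no source used here gives the rule for reads shared between genes. The deposited total table holds expected counts per gene (71.2% of values whole), the allelic table counts of maternal and paternal reads, and the deposited adjusted table is the total split by the allelic share, which matched that product within 0.001 for all 4324 genes checked. The members and lists were chosen with earlier results of these data known.

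Expected counts were rounded, filtered with filterByExpr, scaled by TMM and tested with edgeR 4.0.16 (quasi-likelihood, R 4.3.3) with sex and group as terms, over 16946 genes, with Benjamini-Hochberg adjustment at 0.05. An interaction fit added group by sex. Allelic counts, over autosomal genes with a mean of 20 reads or more, were fitted with library, allele and allele by group terms. Correlations used log2(CPM + 0.1) centred on group means. From each list, up to 4 tested genes with the smallest unadjusted p were named, and for FOXO1 and CPT1A the 4 genes of highest r. Some genes that this rule names are not reported here. Scripts were tested on simulated data. Each library is 1 fetus, with total counts of 12084724 to 19297095, and the SD and SE given hold the spread between fetuses as well as counting error. Alternatives were DESeq2 1.42.0, limma voom 3.58.1, other scaling and filters, a fit with the replicate number as a block and fits without single libraries. Figures were drawn with matplotlib 3.10.9.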

Additional observations from a re-analysis of the deposited data

How the results depend on the processing

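FOXO1 and CPT1A kept a log2 fold change below 0 under DESeq2, limma voom, other scaling, no filter on low counts, no sex term, no assembled loci and each library left out (-0.76 to -0.57 for FOXO1 and -0.58 to -0.43 for CPT1A). Their lower levels were already known from these same libraries, so the kept sign is a description and not a test. Whether the replicate numbers pair fetuses is not established. The correlation of deviations of same-numbered libraries was 0.29, 0.19, -0.19, -0.17 and -0.03 for numbers 1 to 5. Only numbers 1 and 2 matched best with their own number. With a replicate block the values were -0.72 for FOXO1 and -0.37 for CPT1A. Genes called numbered 5 between LOS and controls (0 in the edgeR fit), 22 between the sexes (8) and 6 for the interaction (0) under DESeq2, and 2 and 3 between the sexes with the replicate block and without assembled loci. With the replicate block, log2 fold changes, LOS minus control, turned to -0.06 for FOXO3, -0.06 for FOXO4, 0.00042 for CPT2 and -0.44 for LPIN1. Male minus female, they turned to -0.58 for FOXO1, 0.22 for CPT1A, 0.072 for ACADM and 0.088 for HADHB. Same-numbered libraries shared a sex except control 3 (male) and LOS 3 (female), and LOS 6 had no same-numbered control. In that fit, male minus female is therefore the difference between control 3 and LOS 3 plus the fitted LOS minus control value. The male minus female values there thus carry the contrast of LOS and controls and are not a separate measure of sex. LOS minus control rests there on numbers 1, 2, 4 and 5. Male minus female was 0.0014 for ACADM with no filter and -0.014 for HADHA without assembled loci, where the CPT1A interaction was 0.0049. The correlation of FOXO1 with ACADM was 0.0616 with sex means also removed. That of FOXO3 with FOXO4, a pair taken up after seeing the data, lost its call with sex means removed (0.894, permutation adjusted p = 0.399) and without the 2 libraries farthest in FOXO1 (0.941, permutation adjusted p = 0.154). Beyond this make-up of the replicate block, the cause of these changes was not tested.

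With each library left out in turn, the FOXO target genes higher in LOS numbered 9 to 20 of 27, the dividing-cell genes higher 0 to 1, the genes called between the sexes 3 to 7 and those called for a different allelic share 0 to 1. LPIN1 ranged from -0.026 to 0.78. Male minus female ranged from -0.082 to 0.13 for FOXO1, -0.25 to 0.16 for FOXO3, -0.32 to 0.25 for FOXO4, -0.017 to 0.085 for ACADVL, -0.063 to 0.038 for ACADM, -0.053 to 0.041 for HADHA and -0.20 to 0.042 for PPARA. The interaction ranged from 0.058 to 0.97 for FOXO3, 0.16 to 1.36 for FOXO4, -0.13 to 0.18 for CPT1A and -0.19 to 0.025 for HADHB. The pooled maternal share ranged from 48.1% to 50.9% for FOXO1 and 46.2% to 51.5% for CPT1A. For HADHB it ranged from 58.5% to 59.7%, with an edgeR adjusted p of 0.00013 to 0.000889. The difference of the log2 allelic ratio, a result added after seeing the data, ranged from -0.022 to 0.10 for FOXO3, -0.096 to 0.093 for HADHB and -0.20 to 0.16 for PPARA. Correlations with FOXO1 ranged from -0.0727 to 0.392 for FOXO3, -0.692 to -0.102 for ACADVL, -0.328 to 0.0842 for ACADM and 0.36 to 0.657 for PPARA, and that of FOXO3 with FOXO4 from 0.841 to 0.963. HADHA alleles could be fitted in 8 of these 11 fits. Allelic shares of CPT1A, HADHA and PPARA rest on few reads in several libraries, and their differences had the largest SE of the 7 genes tested.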
